A study of Mus musculus with 8 samples.

Results

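HuR, the product of *Elavl1*, is one of a group of RNA-binding proteins that act on regulatory elements in the 3′UTR of mRNAs, most of them AU-rich elements. The genes described are *Elavl1*, *Zfp36*, *Zfp36l1*, *Zfp36l2*, *Khsrp*, *Tia1*, *Tial1*, *Celf1* and *Pum2*. They were chosen by name for what their proteins bind, with earlier results of these data known, and are 9 of the 33641 genes in the deposited data. The question was whether the other 8 genes shift with *Elavl1* when HuR is deleted in adipocytes. Poly(A) RNA-seq was done on interscapular brown adipose tissue (BAT) of 8 mice of strain C57BL/6 at 28 weeks of age. In A24, A25, A26, A29 and A31, which are labelled *Adipo-HuR-/-*, *Elavl1* was floxed and the Cre recombinase was driven by the adiponectin promoter. The libraries labelled wild-type (A7, A8 and A12) are from littermates, and the study counts as controls mice with Cre and no floxed allele as well as mice with 1 or 2 floxed alleles and no Cre. Which of these genotypes each control library had is not given. The study's legend gives 5 control and 3 *Adipo-HuR-/-* samples, whereas the labels give 3 and 5. The groups used here follow the labels. Cre from this promoter is meant for adipocytes, and BAT also holds vascular, immune, nerve and stromal cells, in which *Elavl1* is not targeted. In bulk tissue, fewer cells of a type and less RNA per cell cannot be told apart.

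AU-rich elements are runs of A and U, often built on the pentamer AUUUA, that set how long an mRNA lasts and how well it is translated. HuR mostly stabilises the mRNAs it binds, whereas the zinc finger proteins of the *Zfp36* family and KSRP, the product of *Khsrp*, recruit the enzymes that remove the poly(A) tail and degrade the mRNA. TIA-1 and TIAR, the products of *Tia1* and *Tial1*, repress translation and gather in stress granules, *Celf1* encodes a protein that prefers GU-rich elements, and *Pum2* encodes a Pumilio protein, which binds the element TGTANATA (U in place of T in the mRNA). The last pair are therefore binding proteins of related decay elements and not of AU-rich elements in the strict sense.

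The deposited values are estimated counts per transcript, and totals per library lay between 17558090 (A25) and 67498055 (A26). Transcript values were summed by gene and rounded, scaled by edgeR's TMM method and expressed as CPM, counts scaled to a common library total. Of all genes, 14851 passed a filter on low counts, among them all 9 described here. The threshold was that of the study, a fold change of 1.5 or more with an adjusted p no higher than 0.05. Positive log2 fold changes stand for higher values in the libraries labelled *Adipo-HuR-/-*. For single values, a two-sided exact permutation test over the 56 ways to assign 8 libraries to groups of 3 and 5 gives 0.0357 as its smallest p.

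The tissue label was checked first. All 10 brown adipocyte markers were tested, 0 were past the threshold by edgeR's quasi-likelihood test and 1 had an unadjusted p under 0.05. Over all genes tested, 0.707% were past the threshold and 17.0% had an unadjusted p under 0.05. The other 3 tools run over all genes (limma voom, the likelihood ratio test of edgeR and the Wald test of DESeq2) also gave 0. Their summed level was 15724 CPM (A7), 32436 (A8) and 22900 (A12), and 27496 (A24), 14881 (A25), 20163 (A26), 20080 (A29) and 24193 (A31). Brown adipocyte RNA was abundant in every library and the groups overlapped, with *Fabp4* the most abundant of these markers (from 6899 CPM in A25 to 14538 in A8). Skeletal muscle RNA divided the libraries in another way. The 12 skeletal muscle markers summed to 3227 CPM (A7), 2035 (A8), 1.68 (A12), 3.05 (A24), 2.66 (A25), 1.84 (A26), 1.5003 (A29) and 331 (A31). Muscle RNA was thus high in 2 control libraries, lower but clear in A31 and near 0 in the other 5, of which A12 is a control. *Myh4* was the most abundant muscle marker, with 1048 CPM in A7, and was at 0 in A25, A26 and A29. Of the 12 muscle markers 1, *Myh7*, was lower past the threshold by edgeR's quasi-likelihood test, 9 had an unadjusted p under 0.05 and their median log2 fold change was −4.68. DESeq2's Wald test and edgeR's likelihood ratio test each called 3 of them lower, and limma voom 0. The macrophage and leukocyte markers (8 genes, *Cd74* the most abundant) summed to between 58.0 CPM (A8) and 185 (A12), and by the quasi-likelihood test of edgeR 0 passed the threshold and 1 had an unadjusted p under 0.05. The endothelial (5 genes, *Cdh5*), fibroblast (5 genes, *Col3a1*) and erythroid (5 genes, *Hbb-bs*) markers also gave 0 genes past it, with 0, 1 and 1 at an unadjusted p under 0.05. For each of these 4 lists the other 3 tools gave 0 as well. Their sums ranged from 281 CPM (A24) to 509 (A29), from 102 (A26) to 422 (A12) and from 365 (A26) to 1155 (A24), with overlapping groups.

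*Elavl1*, the targeted gene, lies on the minus strand at chr8:4285382-4325413 of GRCm38. Its total was 50.6 CPM (A7), 48.0 (A8) and 49.2 (A12). The libraries labelled *Adipo-HuR-/-* had 61.9 CPM (A24), 47.2 (A25), 43.4 (A26), 61.3 (A29) and 61.2 (A31). The controls were close together, while A24, A29 and A31 stood above them and A25 and A26 below, so the groups overlapped. The total of the targeted gene therefore does not check which libraries carry the deletion. The study also shows HuR protein in BAT of both genotypes by Western blot, and protein was not measured here. The study reports that most of its changed genes were lower in *Adipo-HuR-/-* mice. By the labels, 69 genes were lower past the threshold and 36 higher in edgeR's quasi-likelihood test. With total-count scaling 25 were lower and 96 higher, and the median log2 fold change over all genes tested was 0.23. In every other alternative of this count more genes were lower than higher. They were 438 and 380 with DESeq2's Wald test, 369 and 286 with edgeR's likelihood ratio test, and 98 and 59 with limma voom. The log2 fold change of *Elavl1* was 0.16 with a 95% interval from −0.20 to 0.52, whose lower end is a fall of less than 1.5-fold. It was 0.11 without A24, 0.38 with total-count scaling and 0.46 with the most counted transcript in place of the gene sum. Its adjusted p was 0.667 in the quasi-likelihood test of edgeR with Benjamini-Hochberg adjustment. Which part of the gene is floxed, and so what transcript the deleted allele still makes, is not given in the sources used here.

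The total combines transcripts whose mean levels moved in opposite directions. Of the 4 *Elavl1* transcripts in the files, Elavl1-204, with a 3′UTR of 1257 bases, held 83.5% of the counts, and Elavl1-201, with a 3′UTR of 4218 bases, held 16.2%. They also begin at different first exons, that of Elavl1-201 at chr8:4324886-4325413 and that of Elavl1-204 downstream at chr8:4312557-4312619. Whether a change in share comes from the start or the end of the transcript was not tested. The share of Elavl1-201 among all *Elavl1* counts was 25.2% (A7), 34.4% (A8) and 20.6% (A12), against 6.69% (A24), 9.22% (A25), 11.1% (A26), 9.05% (A29) and 11.7% (A31). Elavl1-204 held 74.4% (A7), 65.4% (A8) and 79.2% (A12), and 93.3% (A24), 89.5% (A25), 88.5% (A26), 90.4% (A29) and 88.02% (A31). Every library labelled *Adipo-HuR-/-* had a smaller share of the long form than every control, with a difference in means of −17.1 percentage points (two-sided exact permutation p = 0.0357, the smallest possible). This p only restates the lack of overlap, and the gene was chosen with earlier results known. The nearest libraries of the groups, A12 and A31, had 95% Wilson intervals of 19.0 to 22.2% and 10.8 to 12.8%, which cover counting error only and not the division of reads between transcripts. The level of Elavl1-201 itself was 12.7 CPM (A7), 16.5 (A8) and 10.1 (A12), and 4.14 (A24), 4.36 (A25), 4.81 (A26), 5.55 (A29) and 7.17 (A31). Here too the groups were apart. Elavl1-204 had 37.6 CPM (A7), 31.4 (A8) and 39.0 (A12), and 57.8 (A24), 42.3 (A25), 38.4 (A26), 55.5 (A29) and 53.8 (A31). It was higher in 4 of the 5 libraries labelled *Adipo-HuR-/-* than in any control, and A26 lay just below A12.

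The tests over all transcripts did not call this difference. Elavl1-201 had a log2 fold change of −1.39 (95% interval −2.01 to −0.77, standard error 0.271), with an adjusted p of 0.227 in the quasi-likelihood test of edgeR with Benjamini-Hochberg adjustment over 41808 transcripts. It kept its direction in all 15 alternatives, with adjusted p from 0.0252 to 0.866, and passed the threshold in 1 of them, edgeR's likelihood ratio test. Its usage relative to the gene as a whole fell by 1.49 on the log2 scale (adjusted p = 0.844 in edgeR's diffSpliceDGE test). Elavl1-204 had a log2 fold change of 0.41 (adjusted p = 0.643, edgeR's quasi-likelihood test). Among all transcripts tested, 4 were past the threshold (0.00957%) and the groups did not overlap in CPM for 7.42%. The share of a transcript in its gene did not overlap between groups for 5.54% of the transcripts of genes with at least 2 tested transcripts.

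The controls with the largest shares of the long form, A7 and A8, also held the most muscle RNA. Among the 5 libraries with a negative muscle score (the mean log2 CPM of the 12 markers), the level of Elavl1-201 was 10.1 CPM in the control A12 and 4.14 to 5.55 CPM in the 4 labelled *Adipo-HuR-/-*. A31, with more muscle RNA than these 4, had the highest level of its group. With the muscle score as a covariate the log2 fold change of Elavl1-201 was −1.03 (adjusted p = 0.866, edgeR's quasi-likelihood test). Muscle RNA and genotype are partly tied in these libraries. Their parts in the difference in Elavl1-201 were not tested and cannot be told apart. The first exon of Elavl1-201 shares 204 bases with *Ccl25* on the opposite strand, and whether the counting used strand is not stated. *Ccl25* had between 3.84 and 5.87 CPM over the 8 libraries, with overlapping groups.

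**Figure D1:**
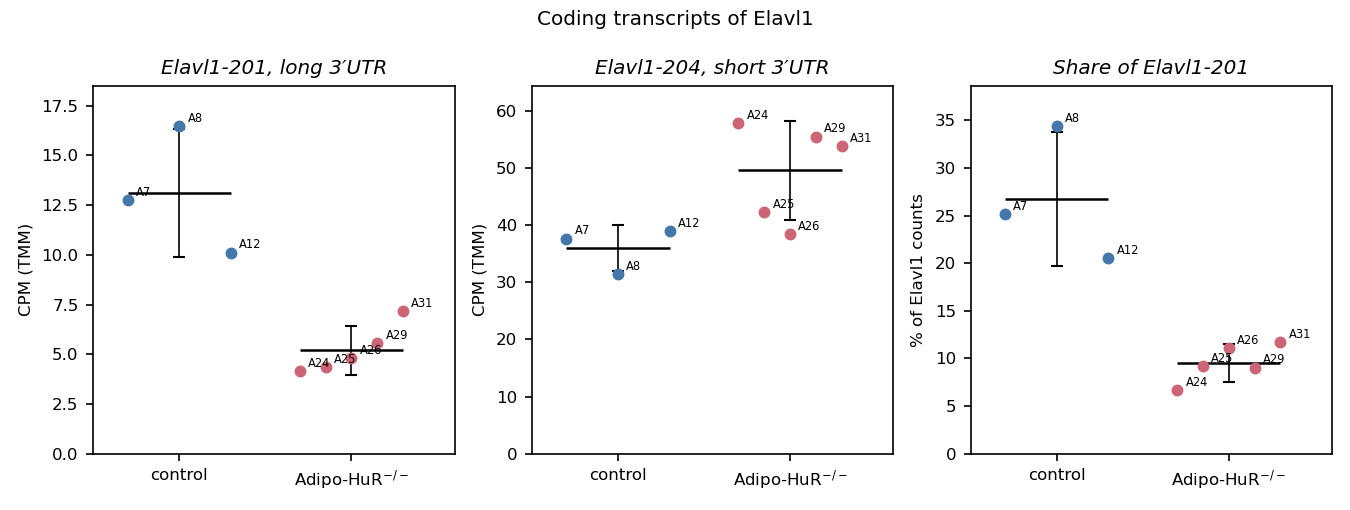
Estimated level (CPM, TMM-scaled) of the long-3′UTR transcript Elavl1-201 and the short-3′UTR transcript Elavl1-204, and share of Elavl1-201 among all *Elavl1* counts (%), in each library. Points are libraries, lines are means and bars are SD (n = 3 and 5); the share is 20.6 to 34.4% in the controls and 6.69 to 11.7% in the libraries labelled *Adipo-HuR-/-*.

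The use of long 3′UTRs was read over all genes as well. In 3755 genes with 2 or more tested coding transcripts and a longest 3′UTR at least 2 times the shortest, the share of the longest form was lower without overlap in 140 (3.73%), *Elavl1* among them, and higher without overlap in 94. The median difference in share was −0.286 percentage points, against −17.2 for *Elavl1* counted over its tested transcripts, and 3.57% of the genes had a lower value than *Elavl1*. The median share per library was 40.3% (A7), 45.5% (A8), 42.4% (A12), 41.2% (A24), 37.7% (A25), 41.7% (A26), 42.6% (A29) and 41.0% (A31). A8 stood highest and A25 lowest, and the other 6 libraries of both groups lay between 40.3 and 42.6%. The share of the long *Elavl1* form was also highest in A8, but not lowest in A25.

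The 2 coding forms differ in the AU-rich elements they carry. Motifs were counted in the GENCODE M21 transcript sequences, on the strand of the transcript only and with overlapping matches counted, in 14079 3′UTRs, 1 for each tested gene that has one. The pentamer ATTTA was in 66.03% of them and the nonamer TTATTTATT, which contains the pentamer, in 7.34%. The 3′UTR of Elavl1-201 held 17 pentamers, more than 98.7% of all 3′UTRs, and 8 nonamers, more than 99.96%, and 5 of the 14079 3′UTRs held 8 or more nonamers. These counts are not scaled by length, and the 3′UTR of Elavl1-201 was longer than 93.96% of all 3′UTRs. It held 4.03 pentamers per kb, against 1.79 over all 3′UTRs. The 1257 bases that Elavl1-204 shares with it held 3 pentamers and 0 nonamers, and the 2961 bases that only the long form has held the other 14 pentamers. All 8 nonamers lay in a stretch of 55 bases, from position 3794 to 3848 of the long 3′UTR. The first and the last of them are shown because they bound the stretch that the short form lacks, with the nonamer in capitals and read on the minus strand from chr8:4285788-4285816 and chr8:4285742-4285770.
Elavl1-201, first nonamer: gtcatgaaaaTTATTTATTtatttattta
Elavl1-201, last nonamer: gtttatttatTTATTTATTacttgtgagt
A match describes letters and does not show that a protein binds there.

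*Zfp36* (chr7:28376784-28380253, minus strand) encodes tristetraprolin, the founding member of the decay-promoting zinc finger family and an immediate early gene. Its level was 22.6 CPM (A7), 11.6 (A8) and 17.997 (A12), against 24.4 (A24), 16.4 (A25), 18.8 (A26), 20.2 (A29) and 14.5 (A31). A24 was highest and A8 lowest, and all other libraries of both groups were mixed between them. *Zfp36l1* (chr12:80107754-80113013, minus strand) encodes a relative with the same tandem zinc fingers. It had 32.8 CPM (A7), 17.2 (A8) and 37.0 (A12), and 50.4 (A24), 30.4 (A25), 34.9 (A26), 24.9 (A29) and 28.0 (A31). Again A24 stood highest and A8 lowest, with overlapping groups. *Zfp36l2* (chr17:84183931-84187947, minus strand), the other relative, had 171 CPM (A7), 141 (A8) and 145 (A12). In the other group it had 132 CPM (A24), 197 (A25), 150 (A26), 137 (A29) and 100 (A31). Its highest and lowest values, A25 and A31, were both in libraries labelled *Adipo-HuR-/-*. The log2 fold changes were 0.11 for *Zfp36* (95% interval −0.41 to 0.63), 0.21 for *Zfp36l1* (−0.42 to 0.85) and −0.10 for *Zfp36l2* (−0.56 to 0.36), which was 0.13 when libraries were scaled by total counts. Their adjusted p-values were 0.850, 0.754 and 0.857 in the quasi-likelihood test of edgeR with Benjamini-Hochberg adjustment. With that scaling the median over all genes tested was 0.23, so the value of *Zfp36l2* stayed below that median. *Zfp36* and *Zfp36l1* turned negative, at −0.11 and −0.04, without A8, and *Zfp36* was just below 0 without A24.

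*Khsrp* (chr17:57021051-57031522, minus strand) encodes KSRP, which recruits the exosome to AU-rich mRNAs. It had 37.0 CPM (A7), 25.6 (A8) and 30.9 (A12), and 31.4 (A24), 45.7 (A25), 30.2 (A26), 32.4 (A29) and 33.3 (A31). A25 stood apart, and the other 4 libraries of its group lay within the range of the controls. *Tia1* (chr6:86404219-86433405, plus strand) had 16.0 CPM (A7), 17.99 (A8) and 12.6 (A12), and 12.9 (A24), 19.1 (A25), 16.6 (A26), 21.9 (A29) and 17.4 (A31). Its values were mixed between the groups, with A29 highest. *Tial1* (chr7:128439777-128461717, minus strand) had 32.5 CPM (A7), 37.9 (A8) and 30.8 (A12), and 34.6 (A24), 33.7 (A25), 32.1 (A26), 36.4 (A29) and 33.6 (A31). Its fold change had the smallest standard error of the 9 genes (0.130), and all 5 libraries labelled *Adipo-HuR-/-* lay inside the range of the controls. The log2 fold changes were 0.15 for *Khsrp* (95% interval −0.26 to 0.55), 0.18 for *Tia1* (−0.24 to 0.61) and 0.01 for *Tial1* (−0.27 to 0.30). That of *Khsrp* was 0.03 without A8, 0.03 without A25 and 0.29 without A7, and that of *Tia1* was 0.05 without A12, 0.09 without A29 and 0.31 without A8. The adjusted p-values were 0.733, 0.683 and 0.967 in the quasi-likelihood test of edgeR with Benjamini-Hochberg adjustment. The sign of *Tial1* changed in 5 of 18 alternatives, with values from −0.17 to 0.26.

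*Celf1* (chr2:90940382-91019497, plus strand) encodes a decay factor for GU-rich mRNAs that also regulates splicing. It had 68.2 CPM (A7), 52.3 (A8) and 61.7 (A12), and 48.3 (A24), 62.4 (A25), 66.5 (A26), 59.9 (A29) and 63.0 (A31). A24 was the lowest and A7 the highest, with the rest mixed. The files list *Celf1* as 28 transcripts in 14 pairs with the same values in every library, of which 1 of each pair is not in the annotation used. The level of *Celf1* may for this reason be counted 2 times over, whereas comparisons between libraries are not affected by it. *Pum2* (chr12:8674134-8752581, plus strand) encodes a Pumilio protein that recruits deadenylases. It had 65.8 CPM (A7), 47.0 (A8) and 73.5 (A12), and 44.3 (A24), 49.9 (A25), 67.5 (A26), 49.3 (A29) and 47.4 (A31). In 4 of the 5 libraries labelled *Adipo-HuR-/-* it was near the value of the control A8, and A26 was with the higher controls. The log2 fold changes were −0.02 for *Celf1* (95% interval −0.36 to 0.33), which was 0.20 with total-count scaling and −0.59 with the most counted transcript in place of the gene sum (adjusted p = 0.294, edgeR's quasi-likelihood test), and −0.26 for *Pum2* (−0.69 to 0.16). The last lay between −0.43 (without A8) and −0.13 (without A12) with 1 library left out, and was −0.06 with total-count scaling and −0.57 with the most counted transcript in place of the gene sum. The adjusted p-values were 0.968 and 0.527 in the quasi-likelihood test of edgeR with Benjamini-Hochberg adjustment.

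The 9 genes were then read together with all genes tested. In edgeR's quasi-likelihood test 0 of 9 were past the threshold, where 0.707% of all genes were, and 0 of 9 had an unadjusted p under 0.05, where 17.0% of all genes had. The number past the threshold was also 0 in limma voom, DESeq2's Wald test, the likelihood ratio test of edgeR and the other alternatives, 18 in all. The groups did not overlap for 0 of 9, against 11.5% of all genes. Their median log2 fold change was 0.11, with 6 above 0 and 3 below, and the median size of the change was 0.148, against 0.00 and 0.268 over all genes tested. With total-count scaling 8 were above 0 and 1 below with a median of 0.28, against 0.23 over all genes tested, and with voom 4 were above 0 and 5 below with a median of −0.02. With 1 library left out, the median of the 9 lay between −0.04 (without A8) and 0.18 (without A7). The 95% intervals of *Tial1*, *Celf1*, *Elavl1*, *Khsrp* and *Tia1* spanned from −0.36 at the lowest to 0.61 at the highest, and those of *Zfp36*, *Zfp36l1*, *Zfp36l2* and *Pum2* from −0.69 to 0.85. A p-value that misses the threshold does not show that the values did not differ, and these intervals give the changes that the 8 libraries leave possible.

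**Figure D2:**
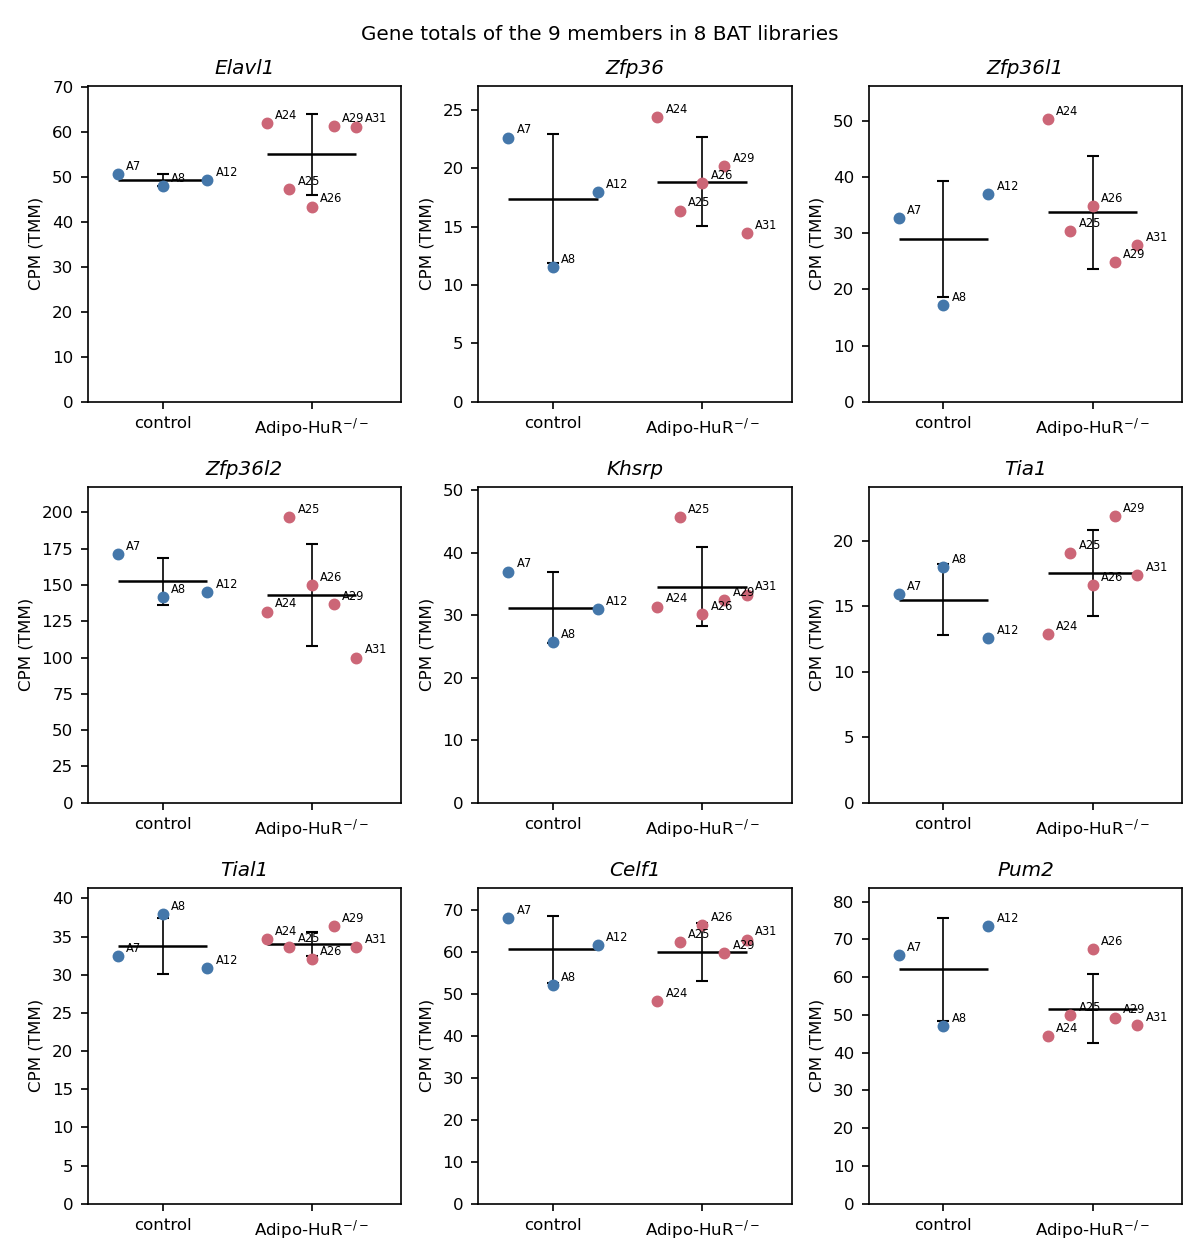
Gene totals (CPM, TMM-scaled) of the 9 genes in each library, by group. Points are libraries, lines are means and bars are SD (n = 3 and 5); the groups overlap for all 9 genes.

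The transcripts of the other 8 genes were read in the same way. With the *Celf1* pairs joined, the 9 genes had 84 transcripts in the files, 54 were tested and 31 held at least 5% of their gene's counts. By edgeR's quasi-likelihood test 0 of the 54 passed the threshold and 3 had an unadjusted p under 0.05, against 8.17% of all transcripts tested. The likelihood ratio test of edgeR called 1, Elavl1-201, and 1.04% of all transcripts. In the diffSpliceDGE test of usage 0 were past an adjusted p of 0.05, where 77 of 36192 transcripts (0.213%) were. Of the 31, the groups did not overlap in CPM for 3 and in share for 4. Over all transcripts tested with at least 5% of their gene's counts, 8.50% did not overlap in CPM. For share the value was 5.63%, over those of genes with at least 2 tested transcripts. The 31 include the single transcripts of *Zfp36l2* and *Khsrp*, whose share cannot differ. The 4 include both coding forms of *Elavl1*, which together held 99.6% of its counts. A fall in the share of 1 of them is therefore nearly the rise of the other. Besides those of *Elavl1*, the transcripts without overlap among the 31 were Tia1-224 and Celf1-205.

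Tia1-224 is a retained-intron transcript of 935 bases in a single exon at the start of *Tia1* (chr6:86404235-86405169) and has no annotated coding sequence. Its share of *Tia1* counts was 3.31% (A7), 2.51% (A8) and 4.55% (A12), against 10.1% (A24), 7.83% (A25), 7.80% (A26), 8.47% (A29) and 7.80% (A31). Its level was 0.528 CPM (A7), 0.451 (A8) and 0.573 (A12), and 1.30 (A24), 1.496 (A25), 1.30 (A26), 1.85 (A29) and 1.36 (A31). Both measures were higher in all 5 libraries labelled *Adipo-HuR-/-* than in any control. Tia1-224 and Celf1-205 are described because their groups did not overlap, so no permutation p is given for them. The log2 fold change of its level was 1.44 (adjusted p = 0.366 in edgeR's quasi-likelihood test), and it rose in all 15 alternatives with adjusted p from 0.0924 to 0.906. Estimated counts behind it ranged from 17.8 (A8) to 97.8 (A29). Celf1-205 (chr2:90998579-91019497), a coding form that starts at an internal first exon, held 32.3% of *Celf1* counts. Its share was 38.5% (A7), 46.2% (A8) and 41.4% (A12), and 26.8% (A24), 33.1% (A25), 20.2% (A26), 36.3% (A29) and 23.7% (A31). The groups were apart, though A29 came within a few points of A7. Its level was 26.3 CPM (A7), 24.2 (A8) and 25.5 (A12), and 12.97 (A24), 20.6 (A25), 13.4 (A26), 21.7 (A29) and 14.9 (A31). Celf1-204 has the same start and end and differs by 9 bases in length. Joined, a step added after these values were seen, the 2 forms held 52.6% (A7), 60.3% (A8) and 41.4% (A12), and 49.3% (A24), 42.8% (A25), 35.0% (A26), 48.0% (A29) and 41.1% (A31), with overlap between the groups (exact permutation p = 0.179, two-sided). The log2 fold change of Celf1-205 was −0.66 (adjusted p = 0.518 in edgeR's quasi-likelihood test), and it fell in all 15 alternatives.

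Shares of some other transcripts differed widely between mice of the same group. Pum2-202, the leading form of *Pum2* with 55.6% of its counts, ranged from a share of 0.0598% (A24) to 72.2% (A29), both labelled *Adipo-HuR-/-*. Tial1-209 had 0 counts in A7 and A26 and 29.02% of *Tial1* counts in A24. The median SD within groups of log2 values was 0.418 over all transcripts tested and 0.283 over all genes tested. Coding transcripts held 43.5% of the counts of *Tia1* and 63.4% of those of *Tial1*, the rest being retained-intron, decay-targeted and other non-coding forms, and at least 97.3% in the other 7 genes. *Zfp36* was divided between Zfp36-201 (57.5%) and Zfp36-202 (42.5%), *Zfp36l1* was mostly Zfp36l1-201 (92.2%), and *Zfp36l2* and *Khsrp* have 1 transcript each in the files.

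Levels of different genes were compared as TPM, in which counts are divided by transcript length and scaled to a common total. Over the 8 libraries the mean was 59.0 TPM for *Zfp36l2*, 30.7 for *Tial1*, 29.1 for *Elavl1*, 19.3 for *Zfp36l1*, 16.8 for *Celf1*, 16.0 for *Pum2*, 12.02 for *Khsrp*, 10.9 for *Tia1* and 9.82 for *Zfp36*. The median of tested genes was 5.22 TPM. *Zfp36l2*, a decay factor, was the highest of the 9 in 8 of 8 libraries, with a mean of 57.3 ± 21.9 TPM (SD, n = 3) in the controls and 60.0 ± 22.3 (SD, n = 5) in the other group. *Elavl1* was above *Zfp36l1* in 8 of 8 libraries, but below *Tial1* in 5 of 8. The neighbours *Celf1* and *Pum2*, *Khsrp* and *Tia1*, and *Tia1* and *Zfp36* kept their order in 5 of 8 libraries each, so these neighbours are not separated beyond their spread. The value of *Celf1* holds both copies of each pair. With 1 copy of each, computed after the values were seen, its mean was 8.38 TPM, the lowest of the 9, below *Pum2* in 8 of 8 libraries and below *Zfp36* in 5 of 8. *Zfp36l1* was above *Celf1* in 6 of 8 libraries with both copies and in 8 of 8 with 1, and *Pum2* was above *Khsrp* in 7 of 8. *Elavl1* had 23.6 ± 7.87 TPM (SD, n = 3) in the controls and 32.5 ± 4.95 TPM (SD, n = 5) in the libraries labelled *Adipo-HuR-/-*. TPM carry no TMM scaling, and A8, whose TMM factor was the lowest at 0.763, had the lowest TPM for 8 of the 9 genes.

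Several of these mRNAs hold such motifs themselves. Of the 9 genes, 4 had the nonamer TTATTTATT in the 3′UTRs examined, which were those of the leading coding transcripts and of Elavl1-201. Besides Elavl1-201 these were Zfp36-201, Zfp36l1-201 and Zfp36l2-201 with 1 each, so all 3 zinc finger genes described here had it. They also held 3, 9 and 5 pentamers. The 3 sites are shown to set their flanks side by side, with the nonamer in capitals, read on the minus strand from chr7:28376951-28376979, chr12:80108167-80108195 and chr17:84184914-84184942.
Zfp36-201: tatgacgactTTATTTATTgtattaagat
Zfp36l1-201: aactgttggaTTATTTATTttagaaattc
Zfp36l2-201: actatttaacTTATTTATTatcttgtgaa
Each of these is a lone nonamer, whereas 7 of the 8 in Elavl1-201 overlap another one. Pum2-202 held 10 pentamers and 2 matches to the Pumilio element TGTANATA, which was in 24.03% of all 3′UTRs and in 1 of the 9 genes. Its 2 matches are the elements named for its own protein family and are shown for that reason, in capitals, on the plus strand at chr12:8750155-8750182 and chr12:8750408-8750435.
Pum2-202, first match: tttatagagaTGTATATAgaattatagt
Pum2-202, second match: tgtacagaatTGTATATActtataattg
The 3′UTRs of Tia1-201, Celf1-205, Khsrp-201 and Tial1-201 held 6, 5, 1 and 1 pentamers. The last of these is 253 bases long, against a median of 1006 bases over all 3′UTRs. No match says only that these letters are not in the window searched.

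Whether the other 8 genes follow *Elavl1* from mouse to mouse was read from correlations of log2 CPM over the 8 libraries. *Elavl1* totals fell into 3 libraries between 61.2 and 61.9 CPM, all labelled *Adipo-HuR-/-*, and 5 between 43.4 and 50.6 CPM, so each r leans on the step between them and not on a graded series. Exact permutation over all 40320 pairings was applied to 14850 genes. The adjusted p was at most 0.05 for 0 genes and the unadjusted p under 0.05 for 434, and the median r was 0.00. Of the 8 genes, 4 had an r above 0. *Zfp36l2* had the lowest, with r = −0.645 (exact permutation p = 0.0814, adjusted p = 0.981) and rho = −0.714 (exact permutation p = 0.0576, adjusted p = 0.9752). Without A24 and A29, the libraries farthest from the median of *Elavl1*, its r was −0.714, but with total-count scaling it was 0.137. A31 is then the only library left with a higher *Elavl1* total, so each r without A24 and A29 leans on A31. *Pum2* had r = −0.602 (exact permutation p = 0.147, adjusted p = 0.981) and rho = −0.548 (exact permutation p = 0.171, adjusted p = 0.9752), and its r was −0.416 without A24 and A29 and 0.0946 with total-count scaling. For the other 6 genes r lay between −0.402 (*Celf1*) and 0.334 (*Tial1*), with exact permutation p from 0.298 to 0.947, and 4 of them changed sign without A24 and A29: *Zfp36* (0.286 to −0.209), *Zfp36l1* (0.159 to −0.110), *Khsrp* (−0.0300 to 0.0790) and *Celf1* (−0.402 to 0.0254). That of *Tial1* fell to 0.0549. With total-count scaling all 8 genes had an r above 0, as did 83.9% of all genes (49.8% with TMM), and the median r over all genes was 0.382. The highest of the 8 was then *Tial1*, with r = 0.814 (exact permutation p = 0.0154, adjusted p = 0.502), followed by *Khsrp* (0.654), *Zfp36* (0.635), *Zfp36l1* (0.547), *Tia1* (0.528) and *Celf1* (0.502). The 3 genes with the highest r were *Plpp1* (r = 0.949, rho = 0.976), *Renbp* (r = 0.947, rho = 0.738) and *Cwc25* (r = 0.924, rho = 0.905), each with an adjusted p of 0.981 by exact permutation. Without A24 and A29 their r was 0.908, 0.924 and 0.848.

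Relatives of these genes and other proteins that bind such elements made a list of 22, of which 18 were tested (not *Elavl2*, *Elavl4*, *Zfp36l3* and *Celf6*). In edgeR's quasi-likelihood test 1 was higher past the threshold, 0 were lower and 5 had an unadjusted p under 0.05, with a median log2 fold change of −0.06. Without overlap between groups, 3 were lower and 1 was higher. Over all genes tested, 0.707% were past the threshold, 17.0% had an unadjusted p under 0.05 and 11.5% did not overlap between groups. The other 3 tools called the same gene alone. It was *Elavl3* (chr9:22015005-22052023, minus strand), which encodes HuC, a paralogue of HuR known from neurons. It had 0.751 CPM (A7), 1.06 (A8) and 0.846 (A12), and 2.03 (A24), 3.46 (A25), 3.34 (A26), 5.32 (A29) and 6.07 (A31). All 5 libraries labelled *Adipo-HuR-/-* were above all controls. Its log2 fold change was 2.21 ± 0.381 (SE; adjusted p = 0.0407 in the quasi-likelihood test of edgeR with Benjamini-Hochberg adjustment), and the coding transcript Elavl3-201 held 92.2% of its counts. The call was lost with the muscle covariate (adjusted p = 0.102), with the most counted transcript in place of the gene sum (0.0933) and without A24 and A25 together (0.0608). It was also lost without A7 (0.122), A12 (0.0676), A25 (0.0931), A26 (0.0789), A29 (0.0933) or A31 (0.0701) alone. The direction held in all 18 alternatives, with log2 fold changes from 2.01 to 2.48 and adjusted p from 8.96e-07 to 0.122.

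*Syncrip*, whose protein binds A-rich and AU-rich mRNA, had 56.3 CPM (A7), 54.2 (A8) and 59.8 (A12), against 40.7 (A24), 37.2 (A25), 38.4 (A26), 38.8 (A29) and 36.9 (A31). The groups were well apart and each was tight, but the log2 fold change of −0.56 is below 1.5-fold and the adjusted p was 0.0626 in edgeR's quasi-likelihood test. It was 9.47e-05 in the Wald test of DESeq2, 0.0270 in the likelihood ratio test and up to 0.792 in the other alternatives. The log2 fold change was −0.34 with total-count scaling, −0.18 with the most counted transcript, −0.60 with voom and −0.62 with the muscle covariate (the last 2 with an adjusted p of 0.0514 and 0.258). *Celf2*, a paralogue of *Celf1*, had 69.1 CPM (A7), 71.4 (A8) and 132 (A12), and from 47.2 (A29) to 67.1 (A31) in the other group. It was lower in all 5 of those libraries (log2 fold change −0.70, adjusted p = 0.155, edgeR's quasi-likelihood test), and without A12 the log2 fold change was −0.33.

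Proteins that import, export or modify HuR made a list of 15, all tested. In edgeR's quasi-likelihood test 1 was lower past the threshold, 0 were higher and 4 had an unadjusted p under 0.05, with a median log2 fold change of −0.08. Without overlap between groups, 4 were lower and 1 was higher. Of all genes tested, 0.707% were past the threshold, 17.0% had an unadjusted p under 0.05 and 11.5% did not overlap between groups. The number higher past the threshold was 0 by edgeR's likelihood ratio test and limma voom, and 1 by DESeq2's Wald test (*Prkcd*). The gene called lower, by all 4 tools, was *Tnpo2* (chr8:85036915-85057583, plus strand), which encodes transportin 2, an import receptor that carries HuR into the nucleus. It had 68.8 CPM (A7), 47.7 (A8) and 62.3 (A12), and 22.1 (A24), 34.2 (A25), 24.2 (A26), 22.6 (A29) and 27.6 (A31). Every library labelled *Adipo-HuR-/-* was below every control. Its log2 fold change was −1.19 ± 0.184 (SE; adjusted p = 0.0289 in the quasi-likelihood test of edgeR with Benjamini-Hochberg adjustment). Its leading coding transcript Tnpo2-201 held 75.2% of the counts and was lower without overlap as well. The call was lost with total-count scaling (adjusted p = 0.0939), the muscle covariate (0.143), the most counted transcript (0.0758) and without A24 and A25 together (0.0705). It was also lost without A7 (0.106), A26 (0.0778), A29 (0.0739) or A31 (0.0551) alone. The fall held in all 18 alternatives, with log2 fold changes from −1.39 to −0.97, a value of −1.19 with the muscle covariate, and adjusted p from 2.32e-06 to 0.143. *Tnpo2* shares 666 exon bases with *A230103J11Rik* on the opposite strand, which is not in the files. *Prkcd* (log2 fold change 0.61, adjusted p = 0.124) and *Prkca* (−0.72, adjusted p = 0.215), kinases that phosphorylate HuR, did not overlap between the groups and were not past the threshold by edgeR's quasi-likelihood test. For *Prkca* the nearest libraries were A12 at 5.872 CPM and A29 at 5.856, and the log2 fold change was −0.28 without A7.

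**Figure D3:**
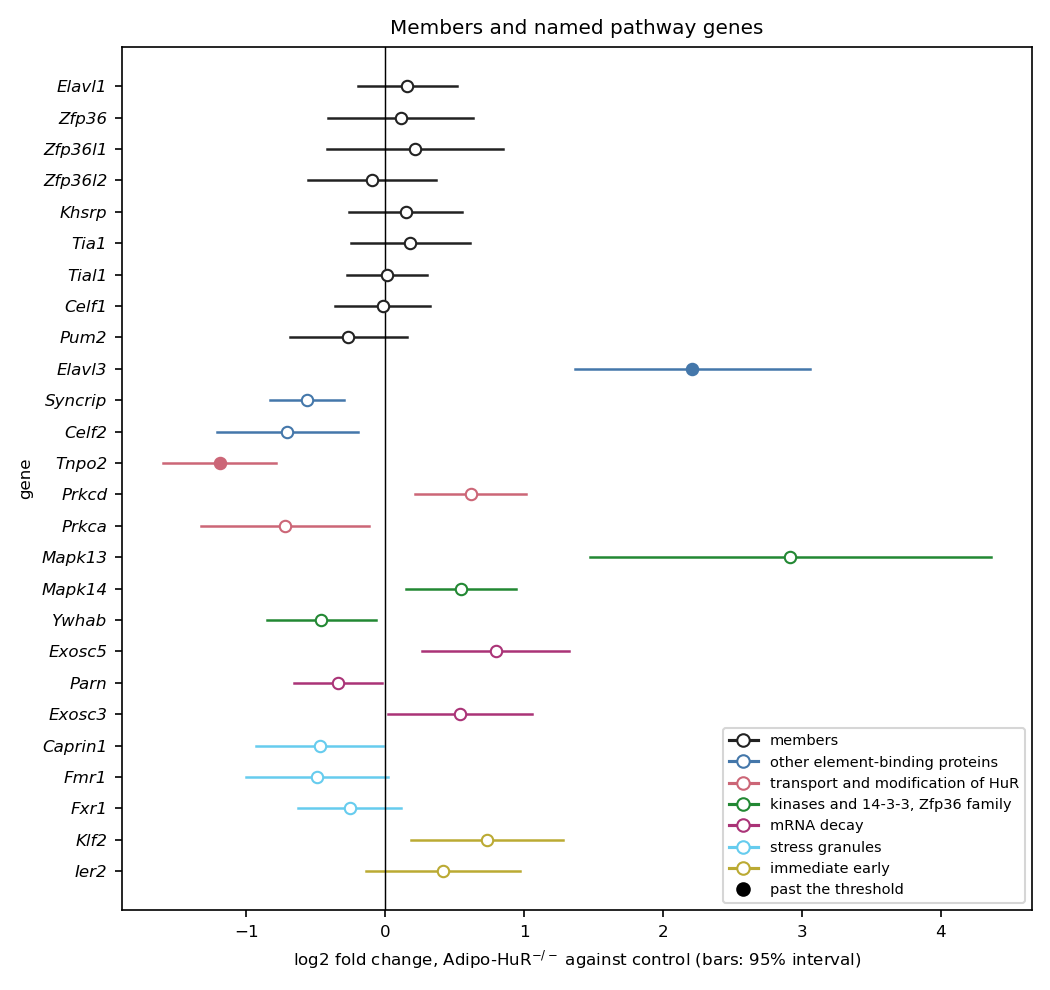
Log2 fold changes with 95% intervals for the 9 genes and the genes named from each list (*Fosb* is left out, as its interval spans −1.36 to 6.86). Filled points are past the threshold, which holds for *Elavl3* (2.21) and *Tnpo2* (−1.19); *Zfp36l2* and *Celf1* change sign with total-count scaling.

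The activity of the *Zfp36* family is set by the p38 and MK2 kinases, by phosphatases and by 14-3-3 proteins, which hold the phosphorylated forms inactive. Of 18 such genes, all tested, 0 were past the threshold by edgeR's quasi-likelihood test, 3 had an unadjusted p under 0.05 and the median log2 fold change was −0.03. Among all genes tested 0.707% were past the threshold, 17.0% had such a p and 11.5% did not overlap between groups. In this list 0 were lower without overlap and 2 were higher. By limma voom 0 were called, and by DESeq2's Wald test and edgeR's likelihood ratio test 1, *Mapk13*. *Mapk13*, which encodes p38δ, had 0.0162 CPM (A7), 0.279 (A8) and 0.293 (A12), and 2.14 (A24), 1.23 (A25), 1.23 (A26), 1.35 (A29) and 1.32 (A31). The groups were apart, on counts of 1 (A7), 11 (A8) and 14 (A12) against 26 (A25) to 87 (A31). Its log2 fold change was 2.92 (adjusted p = 0.0725 in edgeR's quasi-likelihood test), and it passed the threshold in 3 of 17 alternatives, with total-count scaling (adjusted p = 0.0496), DESeq2's Wald test (4.36e-05) and edgeR's likelihood ratio test (0.000583). Its adjusted p reached 0.260 at the highest. *Mapk14*, which encodes p38α, had a log2 fold change of 0.54 (adjusted p = 0.158) without overlap, and the 14-3-3 gene *Ywhab* one of −0.46 (adjusted p = 0.218) with overlap, in the same test.

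Downstream of these proteins lie the deadenylases, the decapping enzymes and the exosome. Of 37 such genes, all tested, 0 were past the threshold by edgeR's quasi-likelihood test, 5 had an unadjusted p under 0.05 and the median log2 fold change was −0.01. The shares of all genes tested were 0.707% past the threshold, 17.0% with such a p and 11.5% without overlap between groups. Among these 37, 0 were lower without overlap and 1 was higher. By edgeR's likelihood ratio test and limma voom 0 were called, and by DESeq2's Wald test 1, *Exosc5*. The smallest p-values were those of *Exosc5* (0.79, adjusted p = 0.130), *Parn* (−0.34, 0.264) and *Exosc3* (0.54, 0.279), given as log2 fold change and adjusted p from the same test. Without A8 the log2 fold change of *Exosc3* was 0.89. *Exosc5*, an exosome subunit, was higher in all 5 libraries labelled *Adipo-HuR-/-* and passed the threshold in DESeq2's Wald test (adjusted p = 0.0407, with a range from 0.0407 to 0.371 over its alternatives). Of 11 stress granule genes, all tested, 0 were past the threshold by edgeR's quasi-likelihood test, 1 had an unadjusted p under 0.05, the median log2 fold change was −0.16 and the groups overlapped for all. DESeq2's Wald test, the likelihood ratio test and limma voom gave 0 too. The leading ones were *Caprin1* (−0.47), *Fmr1* (−0.49) and *Fxr1* (−0.26), with adjusted p from 0.280 to 0.481 in the same test. Without A12 the log2 fold changes of *Caprin1* and *Fmr1* were −0.28 and −0.18.

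*Zfp36* is an immediate early gene, so 10 others of that kind were set beside it. By edgeR's quasi-likelihood test, 0 passed the threshold and 1 had an unadjusted p under 0.05, *Klf2* (log2 fold change 0.73, adjusted p = 0.166). For all genes tested the shares were 0.707% and 17.0%. The other 3 tools also called 0. The median log2 fold change of the list was 0.23. A24, which had the highest *Zfp36* and *Zfp36l1*, was also the library with the highest value for 5 of the 10. The control A7, with the next highest *Zfp36*, was highest for 3, *Fos* (4.32 CPM against 4.06 in A24), *Egr1* (46.3 against 13.3) and *Btg2* (22.4 against 13.99). *Fosb* had 24.2 CPM (A24), 1.46 (A7) and at most 0.481 in the other 6 libraries, *Jun* had 87.3 CPM (A24) against 18.9 to 62.3 elsewhere, and *Junb* 23.3 against 5.29 to 14.9. *Ier2* had 12.9 CPM (A24) against 4.97 to 10.6. The part of this in the values of *Zfp36* and *Zfp36l1* was not tested, and without A24 the log2 fold change of *Zfp36* was just below 0 and that of *Zfp36l1* was 0.02.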

How the data were processed

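The authors deposited an estimated count per transcript for each library, not scaled between libraries; mapping was done in CLC Genomics Workbench according to the study's methods, and the program that wrote the counts is not given in the sources used here. Identifiers and build are those of GRCm38 transcripts, and positions, transcript types, lengths and 3′UTR sequences come from GENCODE M21. Of 98 transcripts listed for the 9 genes, 14 are not in that annotation, all of them of *Celf1* and each with the same values as another one.

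Counts were summed by gene, rounded, filtered with filterByExpr, scaled by TMM and tested with glmQLFit and glmQLFTest in edgeR 4.0.16 under R 4.3.3, with Benjamini-Hochberg adjustment over all genes or all transcripts kept. Shares of transcripts were tested with diffSpliceDGE. The 95% intervals come from the log2 fold change and its standard error with the test's degrees of freedom. TPM used annotated transcript lengths. Log2 CPM had a prior count of 2. Permutation tests ran in Python 3.11.15 with scipy 1.17.1, numpy 2.4.6 and pandas 2.3.3, and figures were drawn with matplotlib 3.10.9. Alternatives were DESeq2 1.42.0 size factors and Wald test, total-count scaling, the likelihood ratio test, voom of limma 3.58.1 with quality weights, a filter of at least 10 counts per library or none, a skeletal muscle score as covariate, the leading transcript in place of the sum, another prior count, leaving out A24 and A25, and leaving out each library.

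All 9 genes are named. Of their transcripts with at least 5% of the gene's counts, those past the threshold or without overlap are given in every library. From each list, genes past the threshold are named, or the 3 with the smallest p where fewer than 3 are past it. The 3 genes with the highest r, and the most abundant gene of each reported marker list, are named too. The planned list of nerve cell markers is not reported here. The genes and lists were chosen with earlier results of these data known. The other immediate early genes with values in A24 were named after their values were seen. The tests were tested on simulated data, in which the transcript test recovered few changed transcripts at the spread of these libraries and the usage test called some unchanged ones. Promoters were not used, and no protein sequences were at hand.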

Additional observations from a re-analysis of the deposited data

Results flagged for a closer look

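Among 41 values looked at in the group of 5 libraries labelled *Adipo-HuR-/-*, 5 had 1 library farther from the others than Dixon's 95% limit for 5 samples (0.71 of the group's range). Chance gives such a value in about 1 in 20 groups, and groups of 3 were not looked at. *Khsrp* was high in A25, at 45.7 CPM against at most 33.3 in the other 4. *Pum2* was high in A26, at 67.5 CPM against at most 49.9. *Mapk13* was high in A24, at 2.14 CPM against at most 1.35 (A29). *Fosb* was high in A24, at 24.2 CPM against at most 0.360 (A29). The summed skeletal muscle markers were high in A31, at 331 CPM against at most 3.05 (A24).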

How the results depend on the processing

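Of 834 alternative values for 64 results, 751 kept their direction and their side of the threshold or moved by less than the spread between replicates, and 30 reversed. The genes past the threshold, 105, became 818 with DESeq2's Wald test, 655 with the likelihood ratio test, 15 with the muscle covariate, 16 with the leading transcript and 5 without A24 and A25, and lay between 10 (without A26) and 190 (without A12) with 1 library left out. The transcripts past it, 4, became 1 with DESeq2's size factors, 1 with total counts, 436 with the likelihood ratio test, 0 with the muscle covariate (an alternative added after seeing the data), 25 with at least 10 counts and 0 without A24 and A25, and lay between 0 and 2 with 1 library left out. Transcripts with changed usage, 77, became 22 with at least 10 counts and lay between 20 (without A12) and 111 with 1 library left out. Elavl1-201 passed the threshold in the likelihood ratio test, at −1.38, and lay between −1.54 and −1.17 with 1 library left out. The causes were not tested.

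Log2 fold changes near 0 reversed. With voom, *Zfp36* was −0.053 and *Zfp36l1* −0.029. With the muscle covariate *Zfp36* was −0.024, *Zfp36l1* −0.037 and *Celf1* 0.0039. With total counts *Zfp36l2* was 0.13 and *Celf1* 0.20, and their differences in CPM 13.7 and 8.38. The leading transcript gave −0.17 for *Tial1*. Without A24 and A25 *Celf1* was 0.051. With 1 library left out, *Zfp36* lay between −0.11 and 0.35, *Zfp36l1* between −0.045 and 0.43, *Zfp36l2* between −0.24 and 0.0050, *Tial1* between −0.047 and 0.11, and *Celf1* between −0.11 and 0.074. The log2 fold change of *Fosb*, 2.75, also reversed, to −1.53 with voom and −1.64 without A24 and A25, and lay between −1.86 (without A24) and 3.89 with 1 library left out. The r with *Elavl1* with total counts was 0.137 for *Zfp36l2*, 0.654 for *Khsrp*, 0.502 for *Celf1* and 0.0946 for *Pum2*, and without A24 and A25 −0.206 for *Zfp36l1* and 0.405 for *Khsrp*. *Mapk13* and *Fosb* gave no value with at least 10 counts in every library, which they do not reach. The smallest p of the exact permutation test is 0.0952 with 1 control left out, 0.0571 with 1 library of the other group left out and 0.1 without A24 and A25, so it cannot reach 0.05 in these.

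No paired analysis was possible because the labels do not give which mice came from the same litter. Muscle RNA and genotype are partly tied, as 2 of 3 controls hold much of it. Of tested transcripts, 14.3% had 0 counts in A24, 10.5% in A8, 8.84% in A12, 6.90% in A25, the library with the lowest total, and 2.82 to 4.62% in the other 4, an order that does not follow the totals. What depth limits was not tested. The division of reads between transcripts of a gene is an estimate whose error is not in the files. Protein and binding were not measured here.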
